A study of Danio rerio with 12 samples.

Results

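The miR-99 and miR-100 family of the zebrafish was followed here in 3 mature microRNAs of the 326 microRNA names counted in all. They are dre-miR-99, dre-miR-100-5p and dre-miR-100-2-3p, written below without the species prefix. The members were chosen by name, and their counts were summed over the genomic copies that carry each name. All 3 were among the 265 microRNAs that passed the filter of at least 10 CPM (counts scaled to a common library total) in at least 3 libraries. Dissociated transgenic fish had been sorted into cell populations, and their small RNA was sequenced, in embryos of 24, 48 or 72 hours (hpf) after fertilization and in larvae 6 days (dpf) after it. Endothelial cells line blood vessels, and the comparison asks which microRNAs they hold relative to other cells as the fish develops. The titles divide the libraries into an Endo and a NoEndo population. The source, tissue and stain labels read endothelial and GFP for both, so only the titles tell the groups apart. No label used here gives the fish strain, the cells that the NoEndo sort held or the number of embryos pooled. At 72 hpf, the first replicates of both populations were the same file under different titles, and both were left out. Each population then had 5 libraries, a pair at 48 hpf and a single one at every other stage. Separate clutches are not stated for the replicates, and p-values therefore measure no more than how these samples vary, and that variation may be technical.

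MicroRNAs are short RNAs that guide Argonaute proteins to messenger RNAs and repress them, and the bases near their 5′ end, the seed, choose the targets. miR-99 and miR-100 are close relatives in an old animal family. In mammals they are known to repress mTOR, a kinase that controls cell growth, and miR-100 has been linked to mTOR and vessel growth in mouse endothelial cells. In vertebrates their genes lie in clusters with let-7, which promotes differentiation, and miR-125, the relative of the nematode timing gene lin-4. Messenger RNAs were not measured here.

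In Zv9, the build of the files, each 5p microRNA had 2 genomic copies, and each copy headed a cluster with a let-7 and a miR-125 gene on the same strand. miR-99 lay at chr10:39438878-39438899 on the minus strand and at chr15:29144690-29144711 on the plus strand. miR-100-5p lay at chr5:31628647-31628668 and chr15:20399298-20399319, both on the plus strand. On chromosome 5, miR-100-2-3p, the opposite arm of the same hairpin, began 13 bases downstream of miR-100-5p, at chr5:31628682-31628703. The gap to the nearest let-7 was 208 bases on chromosome 15 and 287 on chromosome 5 for miR-100-5p and let-7a, and 227 bases on chromosome 15 and 2204 on chromosome 10 for miR-99 and let-7c-5p. The miR-125 gene followed miR-99 after 5363 bases (miR-125c-5p, chromosome 15) or 22970 bases (miR-125b-5p, chromosome 10). It followed miR-100-5p after 10023 bases on chromosome 15 and 8596 on chromosome 5, both times as miR-125b-5p. In the RefSeq gene table of another assembly, GRCz12tu, all 4 hairpins were found by name. There, the hairpin mir-99-1 lies within the span of the protein-coding gene zgc:153372 and mir100-1 within LOC101886227, and no gene of that table spans the other hairpins. The strands of hairpins and genes were not compared. Exons and introns in Zv9 were not analysed here.

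**Figure D1:**
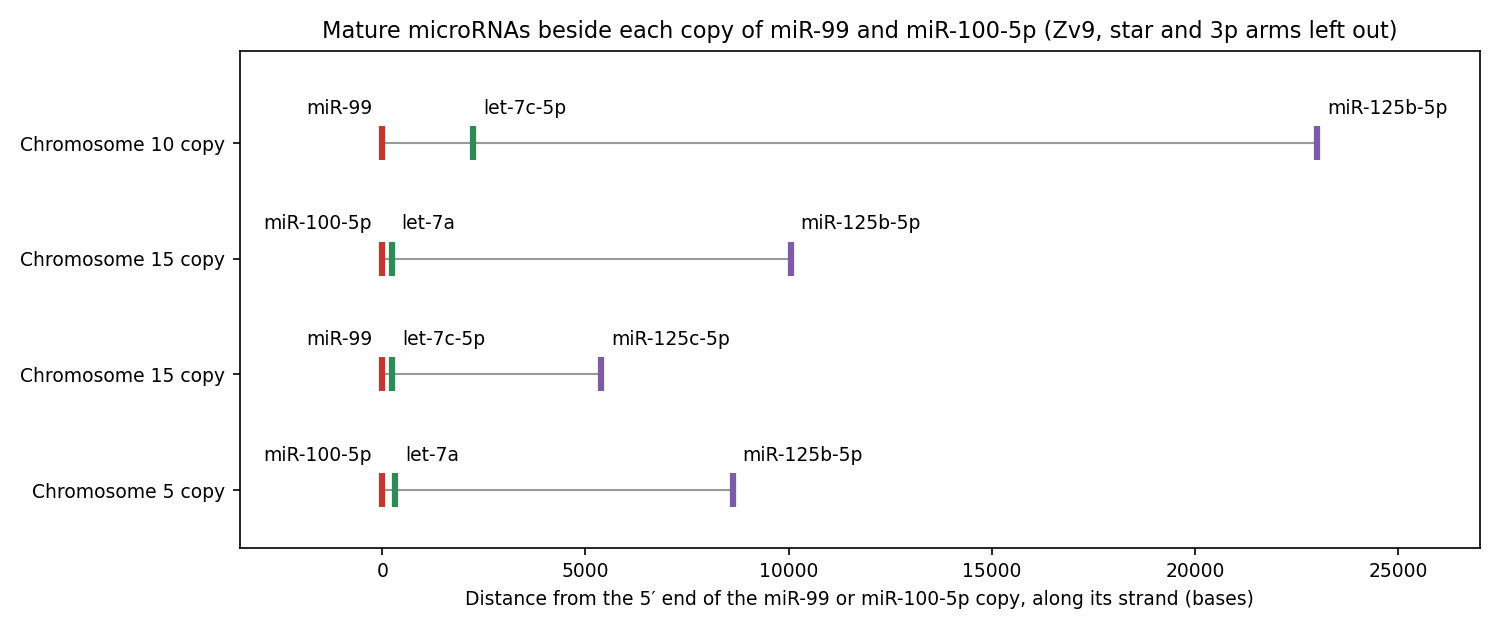
Positions of the mature microRNAs beside each copy of miR-99 and miR-100-5p in Zv9. The x axis is the distance in bases from the 5′ end of the copy along its strand, and each row is 1 copy. All 4 copies are followed by a let-7 and then a miR-125 microRNA, and the cluster on chromosome 10 is the longest.

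The deposited counts bear on how far copies and relatives can be told apart. Each read that maps to several places was divided over them. At both copies of miR-100-5p, between 49.8% and 49.9% of reads were left after that division, and both copies had the same read count in 8 of 10 libraries and differed by 1 read in the others. The counts therefore do not tell the copies of miR-100-5p apart. For miR-99, 90.1% to 94.2% of reads were left at the chromosome 15 copy and 74.3% to 79.5% at the chromosome 10 copy, so most of its reads were placed at 1 copy. miR-99 and miR-100-5p are near-identical in vertebrates, and the mismatches that the counting allowed are not stated, so some reads may be exchanged between them. miR-100-2-3p kept at least 93.5% of its reads in every library. A further entry, miR-100-3p, the opposite arm of the chromosome 15 hairpin, was outside the rule. It had 2 reads in each of 2 libraries, NoEndo replicate 2 at 48 hpf and NoEndo at 72 hpf, and none in the other 8. No member had a line in an antisense table.

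Libraries held 250084 to 5028382 reads on mature microRNAs, and a count of 0 allows up to 12.0 CPM in the shallowest and 0.602 CPM in the deepest (3 counts, counting error only, before TMM scaling). The endothelial markers miR-126a-3p and miR-126b-3p together held 1.47% to 8.37% of counts in Endo and 0.0122% to 0.0608% in NoEndo. The other 2 names of that list were not among the entries. Epithelial microRNAs (8 of 8 listed names found) held 0.704% to 3.45% of counts in Endo and 7.21% to 29.4% in NoEndo. Leukocyte microRNAs (3 of 3) held 0.915% to 6.22% in Endo and 0.0545% to 0.113% in NoEndo. Neural microRNAs (5 of 5) held 0.349% to 1.69% and 0.532% to 6.77%, and muscle microRNAs (4 of 4) 0.219% to 0.983% and 0.598% to 3.16%. In Endo, 1 epithelial and 1 neural marker were at 0 in at least 1 library, and no other marker found was at 0 in any. These lists moved with the populations, and their part in the differences below was not tested. In sorted bulk cells, fewer cells of a type and less RNA per cell cannot be told apart.

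miR-99 and miR-100-5p were both higher in Endo with TMM scaling. By counts, miR-99 ranked 31 to 47 in the Endo libraries and 41 to 59 in the NoEndo libraries, of 227 to 322 microRNAs listed per library. miR-100-5p ranked 19 to 55 and 36 to 75. Together they held 0.353% to 0.835% of counts in Endo and 0.266% to 0.532% in NoEndo. miR-100-2-3p had few counts, at ranks 177 to 262 over all libraries. Levels below are CPM scaled by TMM, a factor per library that allows for differences in composition, unless total counts are named.

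From 24 hpf to 6 dpf, the Endo libraries held miR-99 at 2103, then 2717 and 2410 (48 hpf replicates 1 and 2), then 3135 and 6292 TMM-scaled CPM. The NoEndo libraries, in the same order, held it at 1038, then 1494 and 1379, then 2153 and 2679. Within each of the 4 stages every Endo library was above every NoEndo library, but all stages except 48 hpf compare single libraries. The share of all microRNAs separated in this way within every stage was not computed. Over all stages the populations overlapped, and 3 of 5 Endo libraries exceeded all NoEndo libraries. Of all microRNAs tested, 5.28% had every Endo library above every NoEndo library over all stages and 7.55% the reverse. miR-99 averaged 3331 ± 1698 in Endo and 1749 ± 659 in NoEndo (SD, n = 5). With stage as a factor it was 1.86-fold higher in Endo (log2 0.89, SE 0.27, edgeR quasi-likelihood test with Benjamini-Hochberg adjustment, adjusted p = 0.0160). The test called 41.9% of the 265 microRNAs, 14.3% as higher in Endo and 27.5% as lower, so a call is common among these microRNAs.

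In the same order, the Endo libraries held miR-100-5p at 1916, then 2094 and 1743, then 4080 and 11558 TMM-scaled CPM. The NoEndo libraries held it at 1905, then 1009 and 659, then 2120 and 4643. The populations were level at 24 hpf, Endo was above NoEndo at each later stage, and only the Endo library at 6 dpf exceeded all NoEndo libraries. At 72 hpf and 6 dpf these are single libraries, and the share of all microRNAs with this order was not computed. The means were 4278 ± 4177 in Endo and 2067 ± 1563 in NoEndo (SD, n = 5). With stage as a factor miR-100-5p was 1.92-fold higher in Endo (log2 0.94, SE 0.30, edgeR adjusted p = 0.0215). The call of miR-100-5p was lost, at adjusted p of 0.0522 to 0.0699, when any of 6 libraries was left out: Endo replicate 1 at 48 hpf, Endo at 72 hpf or 6 dpf, and NoEndo replicate 2 at 48 hpf or NoEndo at 72 hpf or 6 dpf. The call of miR-99 was kept without any 1 library, at adjusted p of 0.0291 to 0.0459.

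miR-100-2-3p rested on few reads, with 1, then 38 and 8, then 14 and 4 counts in the Endo libraries in the same order. The NoEndo libraries held 3, then 13 and 52, then 65 and 13 counts. In TMM-scaled CPM these were 3.52, 36.7, 8.52, 15.5 and 34.2 in Endo and 5.17, 13.8, 9.52, 10.5 and 13.2 in NoEndo, and the Endo replicates at 48 hpf differed more from each other than the populations did. The means were 19.7 ± 15.03 in Endo and 10.4 ± 3.46 in NoEndo (SD, n = 5), and the difference did not pass (log2 0.80, SE 0.56, adjusted p = 0.269).

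**Figure D2:**
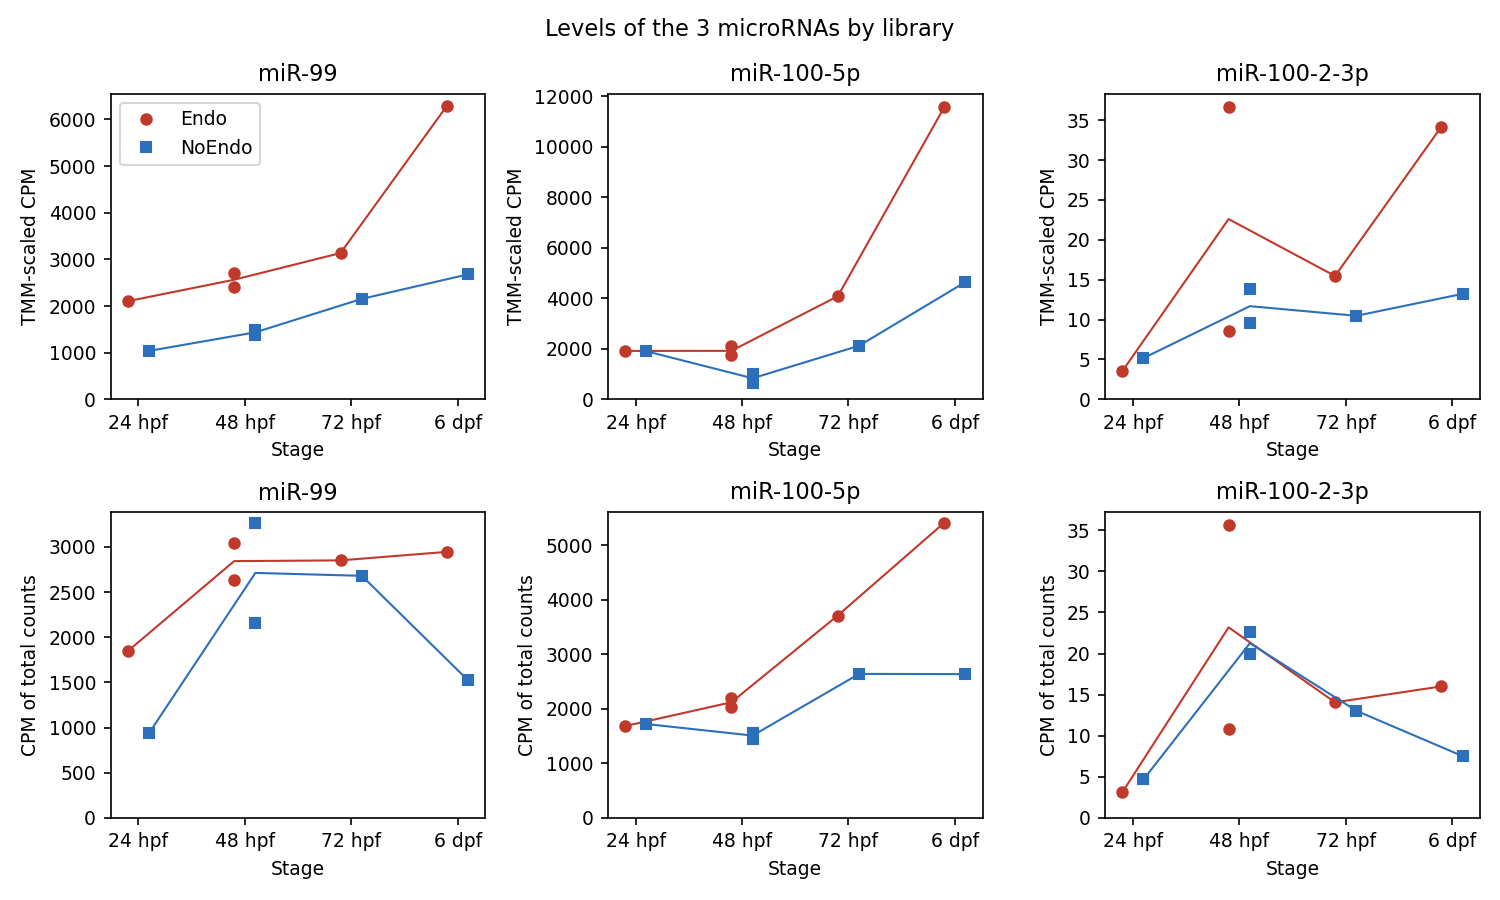
Levels of miR-99, miR-100-5p and miR-100-2-3p by stage, in TMM-scaled CPM (top row) and CPM of total counts (bottom row). Each point is a library (Endo circles, NoEndo squares), lines join stage means, and all y axes start at 0. The Endo points of miR-99 lie above the NoEndo points at all stages in the top row, but not at 48 hpf in the bottom row.

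Both calls depended on the scaling. TMM factors ran from 0.468 in Endo at 6 dpf to 2.37 in NoEndo replicate 2 at 48 hpf. In CPM of total counts, miR-99 ran from 1845 to 3047 in Endo and from 937 to 3269 in NoEndo, and no Endo library exceeded all NoEndo libraries. miR-100-5p ran from 1681 to 5409 in Endo and from 1454 to 2639 in NoEndo, and 2 of 5 Endo libraries exceeded all NoEndo libraries. Scaled by total counts alone, the differences were 0.43 for miR-99 (SE 0.29, adjusted p = 0.270) and 0.50 for miR-100-5p (SE 0.26, adjusted p = 0.154) on the log2 scale, and neither passed. That scaling also moved the median of all 265 microRNAs from -0.065 to -0.53. Relative to the median microRNA, miR-99 was higher in Endo by 0.96 with TMM and 0.95 with total counts, and miR-100-5p by 1.01 and 1.02. A scaling factor moves all microRNAs of a library alike, so these distances are nearly fixed by construction and do not bear on the calls lost with total counts. DESeq2 size factors gave 0.91 (adjusted p = 0.0180) and 0.96 (adjusted p = 0.0154).

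The copies of miR-99 were also compared on their own, an analysis added after the data had been seen. The chromosome 15 copy held 78.0% to 85.3% of the miR-99 counts in Endo and 78.8% to 81.2% in NoEndo. The population differences were 0.90 (SE 0.27, adjusted p = 0.0160) for the chromosome 15 copy and 0.79 (SE 0.28, adjusted p = 0.0350) for the chromosome 10 copy, by the same edgeR test. Both copies were higher in Endo with TMM, the only scaling used for them, and reads that map to both were divided between them. What placed the other reads at a single copy was not examined, so the shares describe placed reads and may not be the output of each copy.

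**Figure D3:**
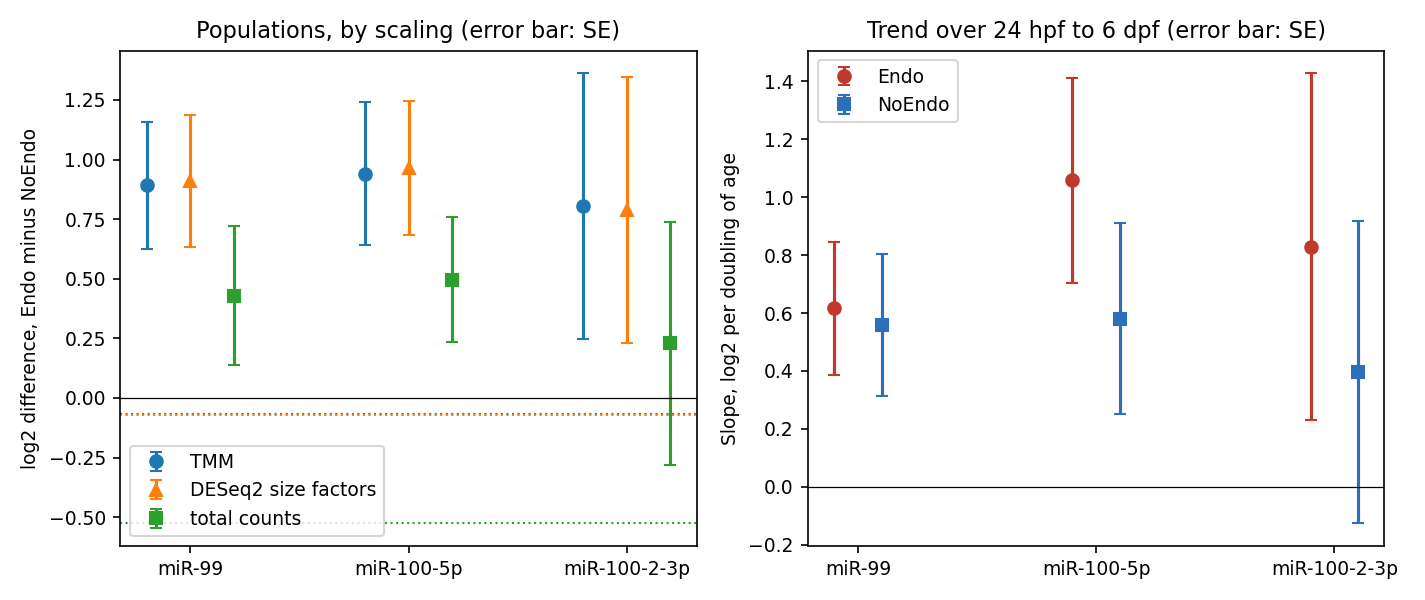
Left, log2 difference between Endo and NoEndo for each microRNA under 3 scalings, with SE and with dotted lines at the median of all 265 microRNAs. Right, slope on log2 hours in each population, with SE. The differences of miR-99 and miR-100-5p fall from 0.89 and 0.94 with TMM to 0.43 and 0.50 with total counts, as the median of all microRNAs falls from -0.065 to -0.53.

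Within single stages no member passed in the edgeR model with 1 mean per population and stage, in which the spread rests on the 48 hpf pairs and the lone libraries are assumed to vary like them. At 48 hpf, the stage with replicates, miR-100-5p was 1.20 higher (SE 0.43, adjusted p = 0.0892) and miR-99 0.84 higher (SE 0.39, adjusted p = 0.172) on the log2 scale. There 10.6% of microRNAs were called, 4.91% as higher and 5.66% as lower in Endo. At 24 hpf, where 0.755% were called, all as higher, the values were 0.0087 (SE 0.60) for miR-100-5p and 1.02 (SE 0.56) for miR-99. At 72 hpf (3.77% called, 2.64% higher and 1.13% lower) they were 0.94 (SE 0.60) and 0.54 (SE 0.55), and at 6 dpf (1.89% called, 1.51% higher and 0.377% lower) 1.32 (SE 0.61) and 1.23 (SE 0.56). miR-100-2-3p ran from -0.55 (SE 2.01) at 24 hpf to 1.37 (SE 1.43) at 6 dpf. With total counts, miR-99 was at 0.98 at 24 hpf, 0.067 at 48 hpf, 0.089 at 72 hpf and 0.95 in the larvae, and miR-100-5p at -0.033, 0.49, 0.49 and 1.04, none of which passed. Whether the difference of miR-100-5p at 24 hpf departs from that at later stages was tested only through the slopes below.

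Over development, all 3 slopes on log2 hours were positive in both populations with TMM and none passed. In Endo, the slopes per doubling of age were 1.06 for miR-100-5p (SE 0.35, adjusted p = 0.0980), 0.62 for miR-99 (SE 0.23, adjusted p = 0.116) and 0.83 for miR-100-2-3p (SE 0.60, adjusted p = 0.447) on the log2 scale. Of all slopes in Endo 5.66% were called, 3.02% as rising and 2.64% as falling. In NoEndo the slopes were 0.58 (SE 0.33, adjusted p = 0.256), 0.56 (SE 0.24, adjusted p = 0.141) and 0.40 (SE 0.52, adjusted p = 0.622), and 15.1% of all slopes were called, 8.3% as rising and 6.79% as falling. With total counts, the slopes in Endo were 0.70 for miR-100-5p, 0.23 for miR-99 and 0.38 for miR-100-2-3p, those in NoEndo were 0.31, 0.17 and -0.11, and none passed. Without Endo at 6 dpf, the Endo slopes of miR-100-5p and miR-99 were 0.60 and 0.35. Without NoEndo at 24 hpf, miR-100-5p passed in both populations, at 1.06 in Endo (adjusted p = 0.0301) and 1.54 in NoEndo (adjusted p = 0.0450). The Endo slope was 1.06 with all libraries too, and what moved its adjusted p was not tested. With libraries left out in turn, 3 to 31 Endo slopes and 3 to 47 NoEndo slopes were called in all. Without NoEndo at 6 dpf, the NoEndo slope of miR-100-5p was -0.040. No difference between the slopes of the populations passed. It was 0.48 (SE 0.48) for miR-100-5p, 0.057 (SE 0.34) for miR-99 and 0.43 (SE 0.81) for miR-100-2-3p, each at an adjusted p of 0.999. edgeR called 0 of 265 slope differences (12 at an unadjusted p under 0.05), limma-voom 0 (6) and DESeq2 1 (19).

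Ordered by mean TMM-scaled CPM over the 8 combinations of population and stage, miR-99 was highest in Endo at 6 dpf, followed by Endo at 72 hpf, NoEndo at 6 dpf, Endo at 48 hpf, NoEndo at 72 hpf, Endo at 24 hpf, NoEndo at 48 hpf and NoEndo at 24 hpf. For miR-100-5p the order was Endo at 6 dpf, NoEndo at 6 dpf, Endo and then NoEndo at 72 hpf, Endo at 48 hpf, Endo at 24 hpf, NoEndo at 24 hpf and NoEndo at 48 hpf. Its Endo replicates at 48 hpf, at 1743 and 2094, enclosed both 24 hpf values, so these 3 neighbours in the order did not differ beyond that spread. For miR-99, the Endo replicates at 48 hpf, at 2410 and 2717, enclosed NoEndo at 6 dpf, at 2679. Single libraries make up 6 of the 8 combinations and have no spread of their own. miR-100-2-3p was highest in Endo at 6 dpf (34.2) and lowest in Endo at 24 hpf (3.52), and its Endo replicates at 48 hpf (8.52 and 36.7) enclosed all but both 24 hpf values. These orders depend on the scaling. In CPM of total counts, miR-99 in NoEndo at 6 dpf (1520) was below all combinations except NoEndo at 24 hpf (937), and NoEndo at 48 hpf averaged 2711. For miR-100-5p, NoEndo at 6 dpf (2635) came after both 72 hpf libraries (3709 and 2639). miR-100-2-3p then averaged 23.2 in Endo and 21.3 in NoEndo at 48 hpf, above the 16.003 of Endo at 6 dpf, which rests on 4 counts.

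The balance between miR-99 and miR-100-5p within a library does not depend on scaling. miR-100-5p made up 47.7% of their joint counts in Endo at 24 hpf (exact 95% binomial interval 44.8% to 50.6%, counting error only), then 43.5% and 42.0%, then 56.5% and at last 64.8%. In NoEndo it made up 64.7% at 24 hpf (62.4% to 67.0%), then 40.3% and 32.3%, then 49.6% and at last 63.4%. In both populations miR-99 prevailed at 48 hpf and miR-100-5p at 6 dpf, and at 24 hpf miR-100-5p prevailed in NoEndo while the interval in Endo included equal shares. The ratio of miR-100-5p to miR-99 was 0.478 to 0.771 in the 4 libraries at 48 hpf and 0.911 to 1.84 in the 6 others. Between populations the mean log2 ratio differed by 0.053 (Endo 0.056 ± 0.56, NoEndo 0.0030 ± 0.84, SD, n = 5), with an exact two-sided permutation p of 0.833 for exchanges within stages (adjusted p = 0.833 over 2 ratios). The smallest p that these 48 exchanges allow is 0.0417.

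**Figure D4:**
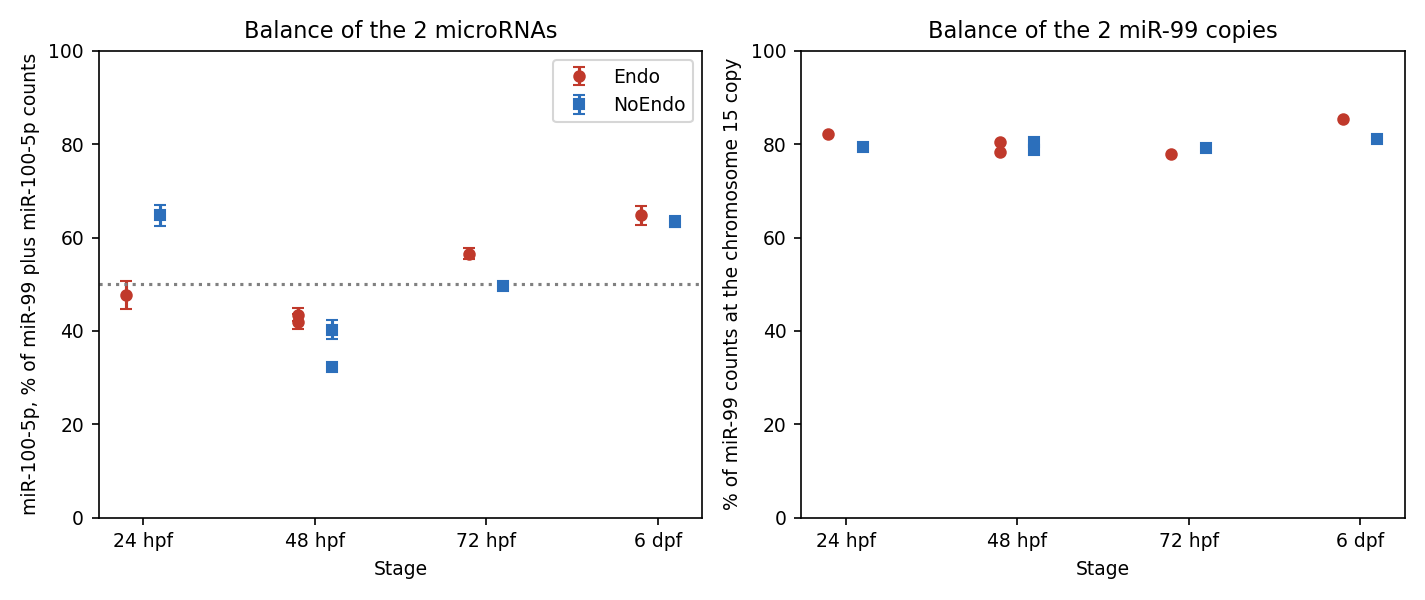
Left, share of miR-100-5p in the joint counts of miR-99 and miR-100-5p by stage, with exact 95% binomial intervals and a dotted line at equal shares. Right, share of miR-99 counts at its chromosome 15 copy. Each point is a library (Endo circles, NoEndo squares). The left share is lowest at 48 hpf in both populations, and the right share stays between 78.0% and 85.3%.

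The counts of the miR-100 arms were very unequal. The ratio of miR-100-5p, summed over both copies, to miR-100-2-3p, which comes from the chromosome 5 hairpin alone, was 57.1 and 205 in the Endo replicates at 48 hpf and 72.8 and 69.3 in the NoEndo replicates. At the other stages it ran from 202 to 545. With 0.5 counts added to both arms, its mean log2 was 7.63 ± 1.07 in Endo and 7.32 ± 1.13 in NoEndo (SD, n = 5), a difference of 0.31 (exact permutation p = 0.5, adjusted p = 0.833 over 2 ratios). The lowest arm counts, 1 in Endo at 24 hpf and 3 in NoEndo at 24 hpf, give the ratios there little precision.

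The cluster neighbours were described as a list fixed by position, within 100 kb of a copy. Of 10 neighbours, 7 were tested, and all 7 were above 0 in Endo against NoEndo, where 128 of all 265 microRNAs were. Several of the 7 come from the same cluster. Position chose the names only, and counts were summed over all genomic copies of a name. The values of miR-125b-5p, let-7a and let-7c-5p are therefore not those of a single cluster. Of the 7, 2 passed as higher, where 14.3% of all microRNAs did. Their median log2 difference over all 7 was 0.80 against -0.065 over all 265 microRNAs. With total counts, 0 of 7 passed (edgeR), the median was 0.36 and miR-125b-1-3p was at -0.11, while DESeq2 size factors gave 5 of 7 as higher. Of all 265 microRNAs, total counts called 108 and DESeq2 size factors 120 in either direction, with medians of -0.53 and -0.070. The share called as higher was not computed for them, so these totals do not match the counts of higher neighbours. These scalings of the lists were added after the data had been seen. The ones that passed with TMM were let-7c-5p (0.94, SE 0.34, adjusted p = 0.0379) and miR-125c-3p (1.98, SE 0.58, adjusted p = 0.0155), the second at 0 to 34 counts per library. let-7a (0.80, SE 0.32, adjusted p = 0.0594), miR-125c-5p (0.74, SE 0.30, adjusted p = 0.0634) and miR-125b-5p (0.67, SE 0.30, adjusted p = 0.0864) did not pass. The opposite arms miR-125b-1-3p and miR-125b-2-3p, each from 1 miR-100 cluster, were at 0.36 (SE 0.44) and 0.99 (SE 0.53) and did not pass.

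Over development, 2 of the 7 tested neighbours rose in Endo and 2 in NoEndo, where 3.02% and 8.3% of all microRNAs rose. Both times these were miR-125b-5p, with slopes of 1.53 (SE 0.30, adjusted p = 0.0137) in Endo and 1.29 (SE 0.28, adjusted p = 0.0120) in NoEndo, and miR-125c-5p, with 1.46 (SE 0.31, adjusted p = 0.0215) and 1.24 (SE 0.29, adjusted p = 0.0185). Both passed in both populations under total counts and DESeq2 size factors as well. Of all 265 slopes, total counts called 13 in Endo and 20 in NoEndo in either direction, and DESeq2 size factors 27 and 43. The wider list of let-7 and miR-125 entries held 16 tested microRNAs of 18. Of these, 5 were higher in Endo and 0 lower (median 0.77), against 14.3% higher and 27.5% lower of all 265 microRNAs. Total counts gave 2 higher and 1 lower, let-7g (median 0.32). With that scaling 108 of all 265 microRNAs were called in either direction, and the shares by direction were not computed. With TMM, 3 of the 16 rose with age in Endo and 4 in NoEndo, and none fell. The miR-10 list, whose microRNAs resemble miR-100 in sequence but are encoded in Hox clusters, is given for comparison. Of 8 tested, miR-10d-3p was lower in Endo (-1.74, SE 0.52, adjusted p = 0.0160) and none higher, with a median of -0.46, and 27.5% of all microRNAs were called lower, a larger share than this 1 of 8. Total counts gave 3 lower, and the share of all microRNAs called lower with that scaling was not computed. The median of the list was then -0.92, against -0.53 over all 265 microRNAs, of which 108 were called in either direction. All 8 slopes were negative in both populations, where 130 of all 265 slopes were positive in Endo and 139 in NoEndo (TMM). With TMM, miR-10a-3p was called as falling in Endo and miR-10b-3p in NoEndo, where 2.64% and 6.79% of all microRNAs were.

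Set against miR-100-5p or miR-99 in the same library, the let-7 members of the clusters were low at 24 hpf in both populations. There were 0.257 let-7a counts per miR-100-5p count in Endo at 24 hpf, then 5.85 and 5.26 in the 48 hpf pair, 4.84 at 72 hpf and 1.19 in the larvae. In NoEndo there were 0.223 at 24 hpf, then 8.51 and 7.92, 2.91 and 1.68. Both 24 hpf libraries were below all 8 later ones, and the ratio was highest at 48 hpf in both populations. let-7c-5p likewise stood at 0.0184 and 0.0249 per miR-99 count in Endo and NoEndo at 24 hpf, and at 0.158 to 0.393 in the later libraries. miR-125b-5p stood at 16.7 and 16.4 counts per miR-100-5p count at 24 hpf and 27.8 to 63.3 later. miR-125c-5p ran from 6.55 to 13.0 per miR-99 count at 24 hpf and from 7.34 to 43.0 later, with no such gap. Each population had a single library at 24 hpf. The share of all microRNAs whose ratios separate 24 hpf from the later stages in this way was not computed. let-7 and miR-125 members share reads with relatives encoded elsewhere, and ratios between microRNAs carry the unequal capture of each sequence, so they compare libraries and not amounts of the microRNAs.

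**Figure D5:**
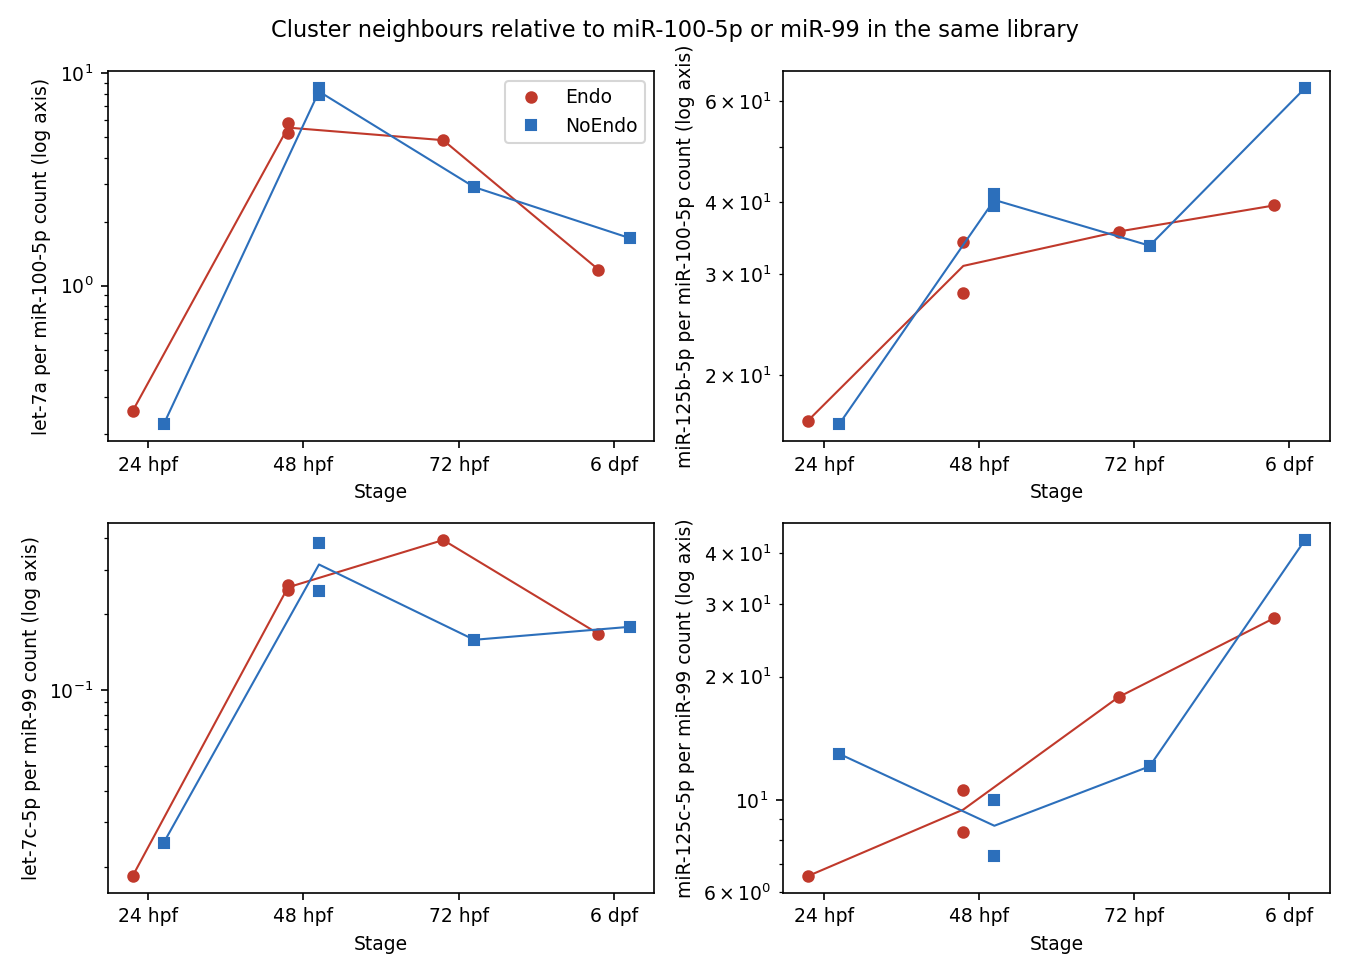
Counts of cluster neighbours per count of miR-100-5p (top) or miR-99 (bottom) in the same library, on log axes. Each point is a library (Endo circles, NoEndo squares) and lines join stage means. let-7a and let-7c-5p are lowest at 24 hpf in both populations, let-7a at 0.257 and 0.223 per miR-100-5p count.

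Among the 161 candidate microRNAs with a mean of at least 100 CPM, the patterns most like that of miR-99 over the 10 libraries were those of miR-187 (Pearson r = 0.95, Spearman rho = 0.98), miR-125a (0.93 and 0.93) and miR-103 (0.92 and 0.92). For miR-100-5p they were miR-30c-3p (0.96 and 0.87), miR-125c-5p (0.93 and 0.89) and miR-125b-5p (0.91 and 0.89). In the clusters described above, miR-125b-5p lies beside both copies of miR-100-5p and also beside miR-99 on chromosome 10. There, miR-125c-5p lies only beside miR-99 on chromosome 15. For miR-100-2-3p they were miR-16b (0.87 and 0.87), miR-16a (0.86 and 0.87) and miR-30c-5p (0.85 and 0.83). Between the members, r was 0.84 for miR-99 and miR-100-5p, 0.66 for miR-99 and miR-100-2-3p and 0.47 for both arms of miR-100 (rho 0.79, 0.72 and 0.49). These values describe log2 TMM-scaled CPM, and all points share the library scaling factors and the stage and population structure.

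In the identical file titled both Endo and NoEndo at 72 hpf, miR-99 and miR-100-5p stood at 4555 and 4703 CPM of total counts. The other 72 hpf libraries held 2850 and 3709 in Endo and 2679 and 2639 in NoEndo. With that file counted as NoEndo, the population differences were 0.62 for miR-99 (adjusted p = 0.294) and 0.65 for miR-100-5p (adjusted p = 0.291), and neither passed. In that setting 27 microRNAs were called in all, against 111 with the file left out, so calls were lost well beyond these members. With the file counted as Endo the differences were 1.07 (adjusted p = 0.0103) and 1.08 (adjusted p = 0.0136), and both passed by the same edgeR test. There, 113 microRNAs were called in all.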

How the data were processed

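Small RNA of sorted zebrafish cells was measured in 12 libraries, of which 10 were used. STAR 2.3.0 and the build Zv9 are named in the submitters' processing notes. How reads were trimmed, annotated and counted is not stated in the labels. The deposited read counts are whole reads per genomic copy, and the deposited expected counts, adjusted for multiple mapping per the file headers, divide a read over its places. Both are unscaled. The deposited signal columns, in RPM of 2 different totals, served only to recover those totals. Expected counts were summed by name and rounded. Read counts and antisense tables served as checks. In the check on unadjusted reads, the copy with most reads stood for each name, and copies were not summed.

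The test was edgeR 4.0.16 (R 4.3.3), robust quasi-likelihood with TMM and Benjamini-Hochberg adjustment over 265 microRNAs at 0.05. It was run with stage as a factor, with 1 mean per population and stage, and with slopes on log2 hours. Each SE was derived from the estimate and its F statistic. The common coefficient of biological variation was 0.450 with stage as a factor, 0.455 with 1 mean per population and stage, and 0.603 with slopes. limma 3.58.1 and DESeq2 1.42.0 were alternatives. Ratios had 0.5 counts added to both microRNAs before the exact permutation test, and printed ratios have none added. The edgeR and permutation code was tested on simulated data. The members, lists and tests were chosen with earlier results of these data known. Named microRNAs are the members, entries within 100 kb, the let-7, miR-125 and miR-10 lists, marker lists and the 3 closest patterns per member. Sequences were not used here. Tried alternatives were other scalings, filters, tests, libraries left out, the replicate number as a block, the identical file kept, unadjusted reads, scaling of the lists, summed members and separate miR-99 copies.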

Additional observations from a re-analysis of the deposited data

Results flagged for a closer look

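At 6 dpf the Endo library stood apart from the 4 other Endo libraries for both 5p members. miR-100-5p was at 11558 TMM-scaled CPM there against 1743 to 4080 in the others, and miR-99 at 6292 against 2103 to 3135. In each, the gap to the next library exceeded Dixon's 95% critical value for 5 samples (0.710), which chance exceeds in about 1 of 20 groups. The 5 libraries span 4 stages and are not replicates of 1 stage. Of 20 such checks on levels, shares and ratios of the members, 2 exceeded it. As shares of counts, the same library held 0.541% miR-100-5p, the highest in Endo, which did not exceed the critical value. Its miR-99 share, 0.294%, was not the highest in Endo, as replicate 2 at 48 hpf held 0.305%. For miR-99 shares the widest end gap was at the low end, at 24 hpf (0.184%), and did not exceed the critical value either. The TMM factor of the Endo library at 6 dpf was 0.468, the lowest of all 10, and its part in these values was not tested.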

How the results depend on the processing

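Of 366 values of members and ratios under an alternative, 337 kept their direction and their side of the threshold. Only the population differences of miR-99 and miR-100-5p had passed to begin with, and 12 of their values missed the threshold. The other results had no call to lose, so the tally says little about how stable a call is. The population differences of miR-99 and miR-100-5p stayed positive under all alternatives and missed the threshold in 3 alternatives each beside the libraries left out. They were 0.43 and 0.50 with total counts, 0.62 and 0.65 with the identical file as NoEndo and 0.93 and 1.05 with no term for stage. The cause was not tested. With libraries left out in turn they ran from 0.81 to 1.01 and from 0.79 to 1.14.

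The population difference of miR-100-2-3p ran from 0.27 to 1.05 with libraries left out in turn and was 0.23 with total counts, and it had no value under the 100 CPM filter. Without 1 library, the Endo slope of miR-100-5p ran from 0.60 to 1.64 and its NoEndo slope from -0.040 to 1.54, and those of miR-99 from 0.35 to 0.82 and from 0.54 to 0.64. Slope differences without 1 library ran from -0.21 to 0.26 for miR-99, from -0.48 to 1.10 for miR-100-5p and from -0.074 to 0.87 for miR-100-2-3p. With the identical file as NoEndo that of miR-99 was -0.27. With total counts the NoEndo slope of miR-100-2-3p was -0.11 and its 5p arm at 24 hpf was at -0.033. At 48 hpf, miR-100-2-3p ran from -0.42 to 1.68 without 1 library. The log2 ratio of miR-100-5p to miR-99 ran from -0.21 to 0.27 without 1 library, and that of the miR-100 arms was -0.040 with the identical file as NoEndo.

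The number of microRNAs called between populations, 111, ran from 65 to 120 without 1 library and was 27 with the identical file as NoEndo and 43 with no stage term. Endo slopes called, 15, ran from 3 to 31 and were 27 with DESeq2 size factors, 25 at 100 CPM, 53 with DESeq2, 23 with the replicate block and 29 with the identical file as Endo. NoEndo slopes called, 40, ran from 3 to 47 and were 20 with total counts and 74 with DESeq2. Slope differences called were 0, and 1 with DESeq2.

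The populations share their replicate numbers at every stage, but only 48 hpf has a pair of libraries in each. There, libraries of the same number deviated together (r = 0.66 over 265 microRNAs). With the replicate block, miR-99 was at 0.89 (adjusted p = 0.0125) and miR-100-5p at 0.95 (adjusted p = 0.0156), 126 microRNAs were called between populations, and no member's call changed. Single libraries at 3 stages, and 1 to 4 counts of miR-100-2-3p in 3 libraries, limit the precision.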
